A study of Capra hircus with 12 samples.

Results

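The genes described here are the 42 that the deposited tables annotate with the KEGG term for aminoacyl-tRNA biosynthesis, out of 15810 genes listed in every table. Which genes belong follows from that annotation alone, which uses no measured value. They comprise 21 cytosolic aminoacyl-tRNA synthetase genes, 16 mitochondrial ones and 5 others. All 42 passed the filter on low counts, so they are 42 of the 13624 genes tested. A symbol ending in 2 was read as mitochondrial, with 2 corrections. TARSL2 ends in 2 but is a cytosolic threonyl-tRNA synthetase-like gene, and LOC102171889, named CARS2 in the ARS1.2 annotation, is the mitochondrial cysteinyl enzyme. The 5 others are GATC, PET112 (GATB) and QRSL1, the subunits of the mitochondrial glutamyl-tRNA amidotransferase, with MTFMT, which formylates initiator methionyl-tRNA in mitochondria, and SEPSECS, which makes selenocysteinyl-tRNA. The mitochondrial methionyl enzyme gene MARS2 lacked the term in the tables and is not included.

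The 12 RNA-seq libraries were prepared with a TruSeq RNA kit from mammary gland biopsies of lactating female dairy goats, and glucose had been infused into the gland. There were 4 libraries each at a low, a middle and a high glucose dose. The amounts infused and an uninfused gland are not given in the labels, so the low dose served as the reference and every comparison is between infused glands. The labels do not say that the libraries came from separate goats, and the p-values therefore measure only the spread between these libraries, which may be technical. In bulk tissue, fewer cells of a type and less RNA per cell cannot be told apart.

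Aminoacyl-tRNA synthetases join each amino acid to its tRNA and so supply the ribosome with charged tRNA. Separate genes serve the cytosol, where secreted milk proteins are made, and the mitochondrion, although KARS and GARS each encode the enzyme of both compartments. Several cytosolic synthetases form a multisynthetase complex on the scaffold proteins AIMP1, AIMP2 and EEF1E1. When amino acids run short, uncharged tRNA activates the kinase GCN2 (EIF2AK4), which raises translation of the transcription factor ATF4, and ATF4 is known to activate many cytosolic synthetase genes together with genes of amino acid synthesis and transport.

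The libraries held 9555072 to 12716883 counted reads, and the members took 0.2% to 0.511% of them. Counts of single members ran from 25 to 6663. Levels are CPM values, the usual depth-scaled counts, relative to the library size scaled for composition by the trimmed mean of M-values (TMM). Since gene lengths were not used, levels are compared between libraries and not between genes. Reads of 8 milk protein genes took very unequal shares of the libraries, namely 2.61, 2.18, 12.3 and 13.7% in low-dose replicates 1 to 4, 52.0, 57.7, 3.44 and 58.9% in the middle-dose ones and 7.48, 42.1, 8.83 and 21.25% in the high-dose ones. Middle-dose replicate 3 stood apart from the other 3 libraries of its dose, and the calls and some of the differences are given with and without it. The tables came in 2 layouts, 1 with 4 libraries and 1 with 8, which no label mentions. All 7 measured markers of secretory epithelium had reads in every library. Of the defining markers of other cell types, CD79B and MS4A1 (B cells), LEP and CIDEC (adipocytes) and ALAS2 (erythroid cells) were at 0 in at least 1 library.

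Some members can share reads with other loci, because neither the counting rule nor the use of strand is given. HARS and HARS2, neighbours on chromosome 7, lie 73 bases apart in the tables' coordinates, whose build is not named. The listed span of MARS shares 68 bases with that of DDIT3, and that of RARS shares 25399 bases with ZFYVE16. IARS2 shares 344 bases with RAB3GAP2 and QRSL1 shares 28312 bases with RTN4IP1. Loci named as similar to members, outside the term, could also take reads. A lysine--tRNA ligase-like locus held 613 to 2225 reads per library and a valine--tRNA ligase-like locus 20 to 76, so KARS and VARS values are uncertain to that extent.

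**Figure D1:**
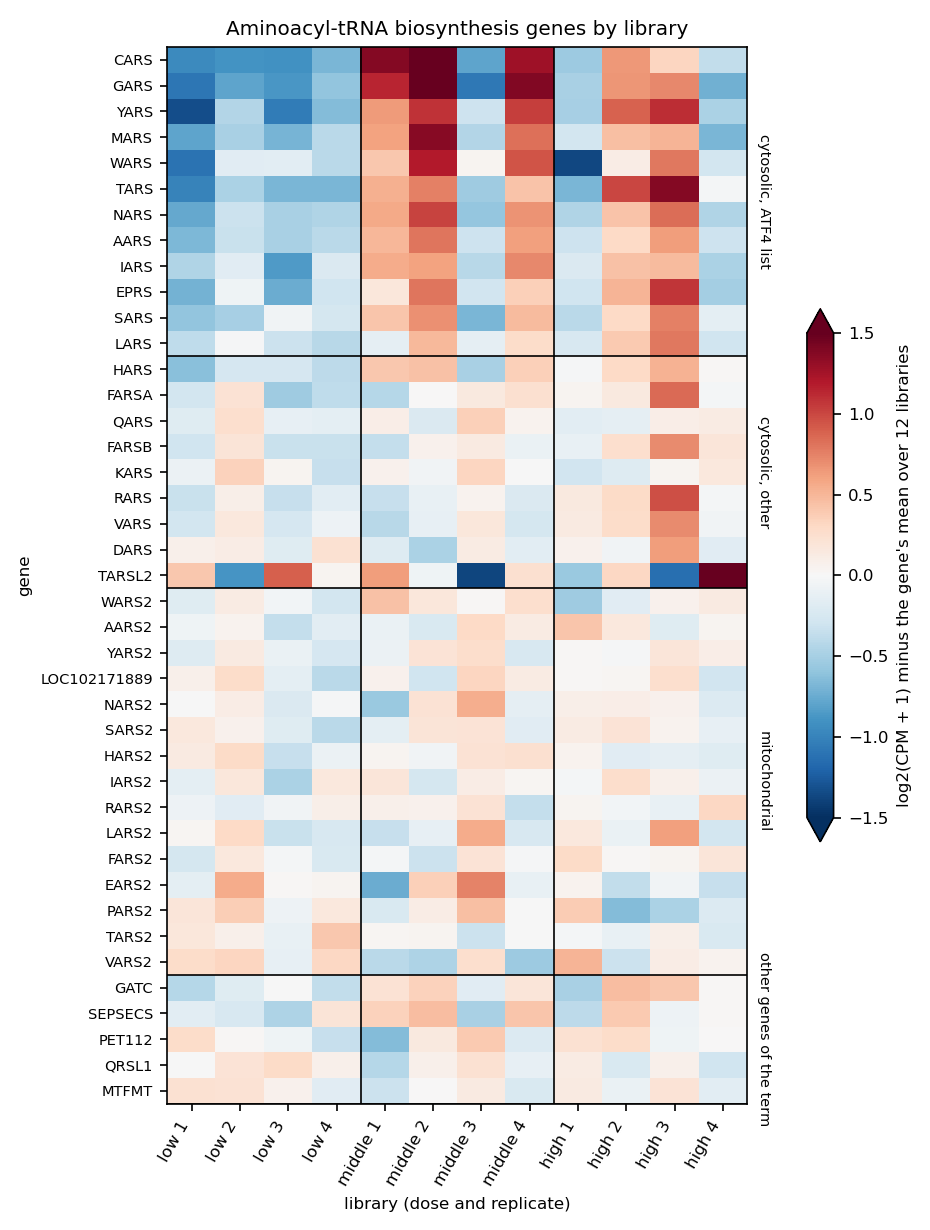
Level of 41 of the 42 genes (rows, grouped by role and ordered within groups by the middle minus low difference) in each of the 12 libraries (columns), as log2(CPM + 1) minus the gene's mean over the 12 libraries, with colours clipped at ±1.5. The upper block of cytosolic genes is red in middle-dose replicates 1, 2 and 4 and in high-dose replicates 2 and 3, and mostly blue in the low-dose libraries and middle-dose replicate 3, while the mitochondrial block has no such pattern.

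With TMM scaling, cytosolic synthetase genes mostly had higher levels at the middle than at the low dose, by a median of 0.64 on the log2 scale against -0.03 over all genes tested. Of the 21, 18 had a positive difference, and the largest was that of the cysteinyl gene CARS at 2.01. No member passed the threshold of an adjusted p of 0.05 in edgeR's quasi-likelihood test, where 0% of all genes did, and the smallest adjusted p among members was 0.0736. At an unadjusted p under 0.05, 10 cytosolic genes were higher and none lower (AARS, CARS, GARS, HARS, IARS, MARS, NARS, TARS, WARS and YARS), against 12.4% of all genes higher and 11.2% lower. In AARS, WARS and YARS all 4 middle-dose libraries lay above all 4 low-dose ones, 3 of 42 members, where 5.93% of all genes did so and 5.92% lay wholly below. DESeq2 called 7 members (AARS, CARS, GARS, IARS, MARS, NARS and YARS) beside 11.1% of all genes. Limma voom with quality weights called 15 members beside 34.5%.

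In edgeR, members passed the threshold between middle and low only when middle-dose replicate 3 was left out, among the 12 fits that left out 1 library each. Without it edgeR called 11 members, 10 cytosolic genes higher (AARS, CARS, GARS, HARS, IARS, MARS, NARS, SARS, TARS and YARS) and the mitochondrial VARS2 lower, beside 8.69% of all genes higher and 8.6% lower. WARS did not pass in that fit either (adjusted p = 0.0528). Middle-dose replicate 3 differed from the rest of its dose in many of these same genes. Calls made without it, here and below, therefore cannot be read apart from the choice to leave it out. The 12-library values remain the main ones.

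CARS (gene ID 102174367, chromosome 29, 46339886 to 46362273), the cysteinyl-tRNA synthetase gene, stood at 11.9, 12.5, 12.3 and 14.6 CPM in low-dose replicates 1 to 4. At the middle dose it stood at 63.9, 71.45, 13.5 and 59.5 CPM, and at the high dose at 16.2, 38.25, 30.2 and 18.5 CPM. Middle-dose replicates 1, 2 and 4 lay far above every other library, whereas replicate 3 lay inside the low-dose range, so these 2 groups overlapped. All 4 high-dose libraries lay above the low-dose ones. The middle minus low difference was 2.01 ± 0.44 (log2 ± SE, 4.04-fold, edgeR adjusted p = 0.0736), and without middle-dose replicate 3 it was 2.34 ± 0.27 (adjusted p = 0.00353).

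GARS (gene ID 102169829, chromosome 4, 63194741 to 63245324) encodes the glycyl enzyme of both compartments. It was measured at 51.3, 63.5, 59.8 and 72.9 CPM in the low-dose libraries, 244, 361, 52.1 and 289.5 CPM in the middle-dose ones and 78.4, 174.5, 183 and 66.6 CPM in the high-dose ones. The 3 highest values were middle-dose replicates 2, 4 and 1, and middle-dose replicate 3 was close to the lowest low-dose library. The middle minus low difference was 1.94 ± 0.50 (edgeR adjusted p = 0.0784), against 2.27 ± 0.34 without middle-dose replicate 3 (adjusted p = 0.00544).

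MARS (gene ID 102174910, chromosome 5, 54397030 to 54416534), the methionyl gene and a member of the multisynthetase complex, had 41.25, 50.9, 43.9 and 54.2 CPM at the low dose. The middle-dose values were 109.6, 187, 52.8 and 129 CPM and the high-dose values 59.5, 99.0, 103 and 44.5 CPM. Again middle-dose replicates 1, 2 and 4 were the top of the series and replicate 3 fell within the low-dose range, which made the groups overlap. The difference between middle and low was 1.33 ± 0.35 (edgeR adjusted p = 0.0806).

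YARS (gene ID 102170371, chromosome 2, 120273946 to 120300695), the tyrosyl gene, had 23.8, 44.7, 29.1 and 38.7 CPM at the low dose, 96.1, 131, 49.1 and 127 CPM at the middle dose and 43.1, 114, 133 and 43.65 CPM at the high dose. Every middle-dose library exceeded every low-dose library, though replicate 3 by little, and high-dose replicates 1 and 4 overlapped the low-dose range. Its middle minus low difference was 1.56 ± 0.42 (edgeR adjusted p = 0.0822) and its high minus low difference 1.29 ± 0.42 (adjusted p = 0.388).

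**Figure D2:**
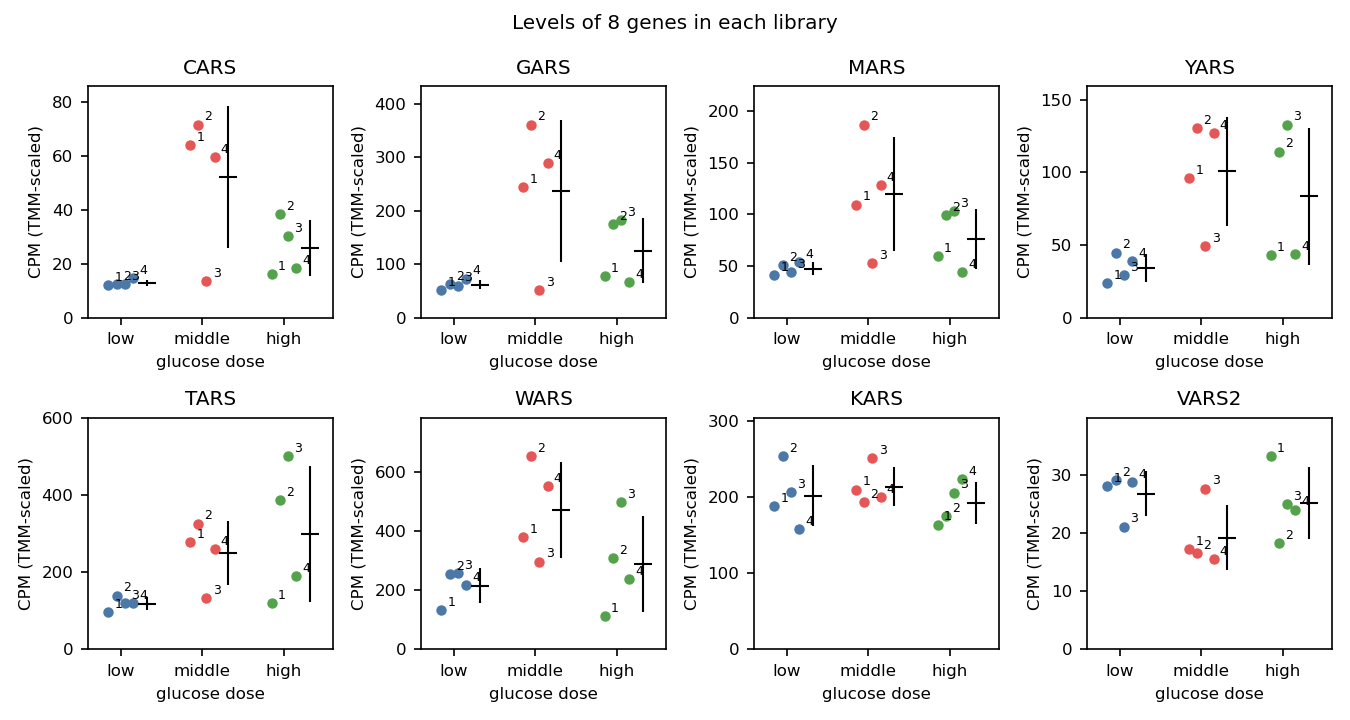
CPM (linear axes from 0) of 8 genes in each library by glucose dose, with replicate numbers beside the points and the mean ± SD of 4 libraries as a black bar. CARS, GARS and MARS are highest in middle-dose replicates 1, 2 and 4, TARS is highest in high-dose replicate 3, KARS overlaps across the doses, and VARS2 is lowest in middle-dose replicates 4, 2 and 1.

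WARS (gene ID 102190826, chromosome 21, 62146133 to 62172953), the tryptophanyl gene, is known to be inducible by interferon as well as by ATF4. It stood at 132.5, 255, 256 and 216 CPM in the low-dose libraries and at 379.9, 653, 296 and 551 CPM in the middle-dose ones. The high-dose values were 110.5, 309, 497 and 236 CPM, which span the low-dose range. All 4 middle-dose libraries exceeded all low-dose ones, by 1.13 ± 0.41 on the log2 scale (edgeR adjusted p = 0.13), and the high minus low difference was 0.42 ± 0.40 (adjusted p = 0.682). The mean log2 CPM of 16 interferon-response genes was 6.17 in low-dose replicate 4 and 3.14 to 4.15 in the other 11 libraries. WARS was at 216 CPM in low-dose replicate 4, below low-dose replicates 2 and 3, and the part of the interferon genes in its level was not tested.

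At the high dose the cytosolic genes again had mostly positive differences from the low dose, with 20 of 21 above 0 and a median of 0.53 against -0.03 over all genes. EdgeR called none of the 42 members and 0% of all genes, DESeq2 called 0 members and 0.49% of genes, and limma voom called 0 members and 0%. The smallest edgeR adjusted p among members was 0.388. At an unadjusted p under 0.05, 9 cytosolic genes were higher and none lower (AARS, CARS, EPRS, FARSA, FARSB, HARS, RARS, TARS and YARS), where 7.27% of all genes were higher and 4.16% lower. All 4 high-dose libraries lay above the low-dose ones for AARS, CARS and HARS, against 2.25% of all genes above and 2.47% below. The 9 genes with such a p became 16, 4, 3 and 15 when high-dose replicate 1, 2, 3 or 4 was left out, and the share of all genes with such a p in either direction went from 11.4% to 20, 6.5, 6.01 and 12.8% in the same fits. Without low-dose replicate 1, 3 or 4 they were 4 each time, beside 6.52, 11.1 and 8.04% of all genes, and without middle-dose replicate 3 they were 14, beside 13.2%. Among the 8 libraries of the smaller layout, with 2 to 3 libraries a dose, the cytosolic median was 0.91. The other layout held 1 library each of the low and middle doses and gave no value.

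TARS (gene ID 102180155, chromosome 20, 39993599 to 40015234), the threonyl gene, had the smallest p of the members in this comparison. It stood at 95.4, 139, 119.7 and 119 CPM at the low dose, 279, 326, 132 and 260 CPM at the middle dose and 119, 386, 501 and 189 CPM at the high dose. High-dose replicates 3 and 2 were the highest of all 12 libraries, while high-dose replicate 1 lay within the low-dose range. The high minus low difference was 1.34 ± 0.40 (edgeR adjusted p = 0.388).

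HARS (gene ID 102178168, chromosome 7, 47994869 to 48008191), the histidyl gene, had 21.7, 28.6, 28.5 and 25.8 CPM at the low dose and 33.7, 42.2, 49.2 and 34.45 CPM at the high dose, with no overlap. Its middle-dose values were 45.4, 46.65, 24.1 and 44.0 CPM, of which only replicate 3 fell into the low-dose range. The high and middle differences from the low dose were 0.61 ± 0.21 and 0.61 ± 0.21 (edgeR adjusted p = 0.388 and 0.125). Its mitochondrial neighbour HARS2, at 46.6, 51.5, 33.0 and 39.5 CPM in the low-dose libraries, differed by -0.12 ± 0.15 and 0.11 ± 0.15 (adjusted p = 0.758 and 0.69).

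RARS (gene ID 102187861, chromosome 7, 76572274 to 76601002), the arginyl gene of the complex, and VARS (gene ID 102179148, chromosome 23, 25957264 to 25968690), the valyl gene, showed another order of the doses. RARS stood at 39.2, 52.6, 38.6 and 44.3 CPM at the low dose, 38.9, 45.6, 51.3 and 42.6 CPM at the middle dose and 54.7, 60.4, 97.8 and 48.5 CPM at the high dose. High-dose replicate 3 was the highest library by far, and the middle-dose values lay inside the low-dose range. The RARS difference was 0.58 ± 0.21 for high minus low (edgeR adjusted p = 0.388), 0.03 ± 0.21 for middle minus low and 0.55 ± 0.21 for high minus middle (adjusted p = 0.279). VARS stood at 66.1, 89.5, 67.0 and 76.1 CPM at the low dose, 60.1, 73.9, 90.8 and 66.8 CPM at the middle dose and 88.3, 97.1, 132 and 77.6 CPM at the high dose. Its highest library was also high-dose replicate 3, and the 3 doses overlapped. Its high minus middle difference was 0.44 ± 0.19 (edgeR adjusted p = 0.318).

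Between the high and middle doses, 9 of 21 cytosolic genes were higher at the high dose and the median difference was -0.10, against 0.03 over all genes. EdgeR called 0 of 42 members and 0% of all genes, DESeq2 0 members and 2.04% of genes, and limma voom 0 members and 2.33%. At an unadjusted p under 0.05 RARS and VARS were higher and CARS lower, where 7.5% of all genes were higher and 7.41% lower. No member's groups stood clear of each other, against 3.33% of all genes above and 2.61% below. Those 3 genes became 1 without middle-dose replicate 1, 2 or 4, where 9.44, 11.5 and 8.39% of all genes had such a p in either direction, and 8 without replicate 3, where 26.5% had one, against 14.9% with all libraries. The CARS difference was -1.01 ± 0.43 (edgeR adjusted p = 0.306) and that of GARS -0.91 ± 0.49 (adjusted p = 0.394). Without middle-dose replicate 3, CARS was called lower (difference -1.34 ± 0.26, adjusted p = 0.0309) as the only member beside 3.67% of all genes, and 0% of genes were then called between high and low. Within the 8 libraries of the smaller layout the cytosolic median of high minus middle was 0.26, of the opposite sign.

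The middle dose was also compared with the average of low and high, and a further test asked for any difference among the 3 doses. EdgeR called 0 members and 0% of all genes in each. Against that average, 8 cytosolic genes and the mitochondrial WARS2 were higher at an unadjusted p under 0.05 and none was lower, where 12.1% of all genes were higher and 9.78% lower. With all 12 libraries DESeq2 called 3 members (CARS, GARS and MARS) beside 8.02% of genes and limma voom 12 beside 25.9%, and edgeR without middle-dose replicate 3 called 9 beside 15.7%. The 9 genes with a small p in edgeR were 3 or 4 without middle-dose replicate 2 or 4, beside 15.8 and 12.5% of all genes in either direction, against 21.9% with all libraries. For any difference, 11 members had an unadjusted p under 0.05 against 21.4% of all genes, and all 11 were cytosolic. Without low-dose replicate 1 or 4 they were 6 or 7, beside 14.2 and 15.1% of all genes. For this test DESeq2 called 5 members beside 8.26% of genes and limma voom 13 beside 28.1% with all 12 libraries, and edgeR without middle-dose replicate 3 called 8 beside 9.35%.

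**Figure D3:**
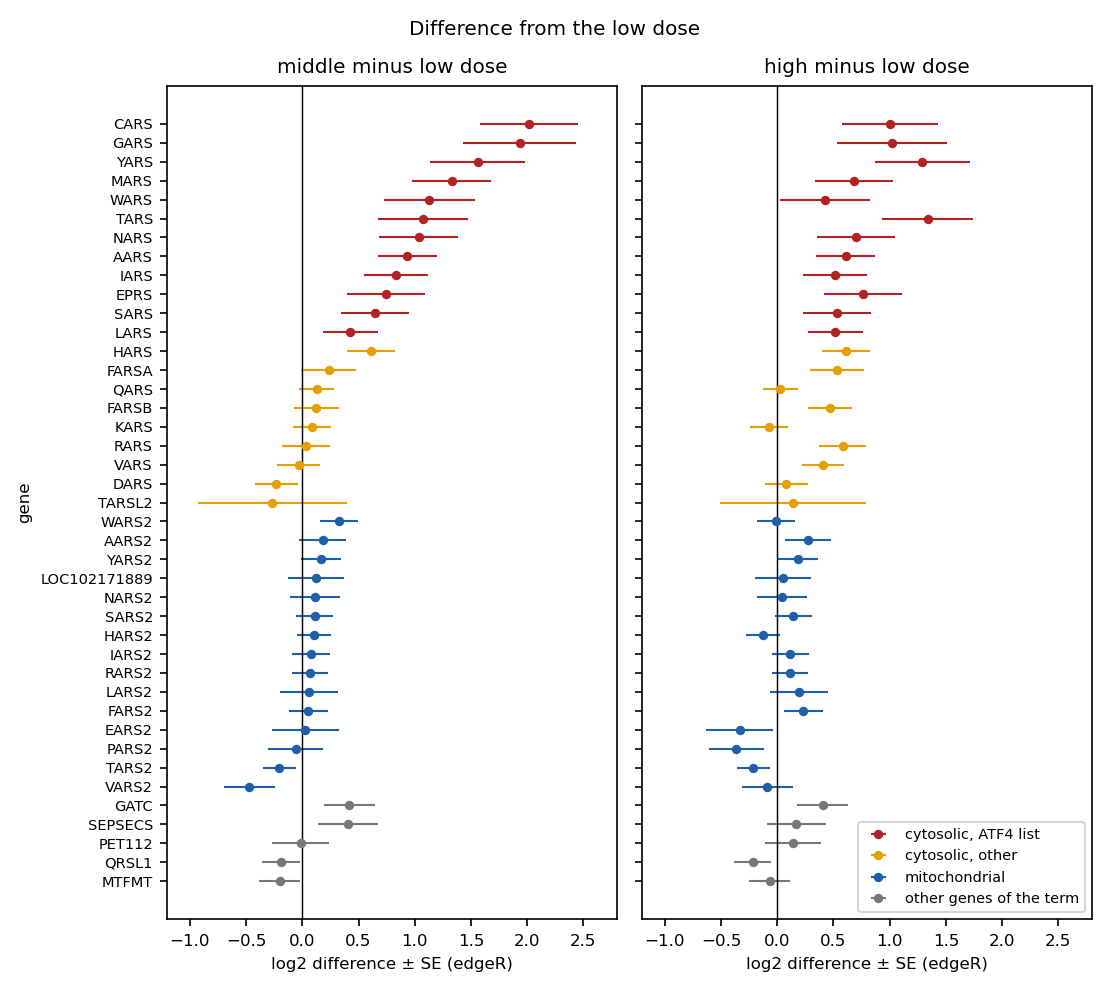
Log2 difference ± SE from edgeR for 41 of the 42 genes, middle minus low dose (left) and high minus low dose (right), coloured by group. The cytosolic genes listed as ATF4 targets lie to the right of 0 in both panels under TMM scaling, from 0.43 to 2.01 on the left, where 6 of the 12 change sign with library size alone, whereas the mitochondrial genes lie around 0, from -0.47 to 0.32.

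The cytosolic genes were divided by a list of 12 commonly given as ATF4 targets (AARS, CARS, EPRS, GARS, IARS, LARS, MARS, NARS, SARS, TARS, WARS and YARS). This list was set down with earlier results of these data known. Between middle and low, all 12 had positive differences from 0.43 to 2.01 with a median of 1.05. The 9 cytosolic genes off the list (DARS, FARSA, FARSB, HARS, KARS, QARS, RARS, TARSL2 and VARS) had a median of 0.08, with 6 of 9 above 0. Their differences ran from -0.27 to 0.61, so the listed and other genes overlapped. Between high and low the medians were 0.69 for the 12, all above 0, and 0.40 for the 9, with 8 above 0. The ranges again overlapped there, at 0.42 to 1.34 for the 12 and -0.07 to 0.61 for the 9. Between high and middle they were -0.32 and 0.31. When libraries were scaled by their size alone, the median of all genes moved to -0.86 between middle and low, -0.32 between high and low and 0.56 between high and middle. Of the 21 cytosolic genes, 6, 17 and 18 were then above 0 in these comparisons, against 18, 20 and 9 with TMM. The direction flipped for 6 of the 12 listed genes between middle and low, and 0 of the 9 others stayed above 0. Relative to the median of all genes the listed genes were 0.86 higher and the others 0.16 higher under that scaling, against 1.09 and 0.11 under TMM. Without middle-dose replicate 3 they were 1.33 and 0.08 higher under TMM. The median of all 21 cytosolic genes was then 0.92 higher, against 0.675 with all libraries. With milk protein genes left out and size alone, an alternative chosen after seeing the data, all 12 were above 0.

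Each listed gene was compared with its own median over the 12 libraries. In middle-dose replicates 1, 2 and 4, 11, 12 and 12 of the 12 genes lay above their median, and in replicate 3 there were 3. In high-dose replicates 1 to 4 the numbers were 2, 12, 12 and 3, and in low-dose replicates 1 to 4 they were 0, 4, 1 and 0. The libraries with 11 or 12 genes high were therefore 3 of the middle dose and 2 of the high dose, and the high dose was divided within itself. High-dose replicates 2 and 3 came in the smaller table layout and replicates 1 and 4 in the larger. Within the high dose this division therefore cannot be told apart from the layout. Of the 5 libraries with 11 or 12 genes high, the milk protein share was high in 4 and 8.83% in the fifth, high-dose replicate 3. ELF5, a transcription factor of secretory cells, stood at 2107 to 3348 CPM in all 5, with 2107 CPM in high-dose replicate 3. It stood at 563 to 1457 CPM in the other libraries. The part of secretory cells in the synthetase levels was not tested. Of the 9 cytosolic genes off the list, 2, 7, 2 and 1 lay above their median in low-dose replicates 1 to 4, 4, 2, 7 and 4 in the middle-dose ones and 4, 6, 8 and 7 in the high-dose ones, and of the 4 libraries with 7 or 8 of them high only high-dose replicate 3 was among the 5 with the listed genes high.

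A share within the synthetase reads does not depend on the scaling of libraries. The 12 listed genes made up 61.0, 63.0, 65.3 and 67.2% of cytosolic synthetase reads in low-dose replicates 1 to 4. At the middle dose the share was 78.3, 83.65, 62.0 and 80.3%, and at the high dose 64.25, 76.9, 76.6 and 64.1%. The 5 libraries above 76% were the same 5 as above, and the other 7 lay between 61% and 67.2%. The ratio of GARS reads to KARS reads was 0.272, 0.250, 0.290 and 0.462 at the low dose, 1.16, 1.87, 0.2075 and 1.45 at the middle dose and 0.479, 1, 0.887 and 0.2985 at the high dose, with the middle dose split between replicate 3 and the rest. This pair was chosen after its values were seen. KARS itself stood at 189, 254, 206.5 and 158 CPM at the low dose and differed by 0.08 ± 0.17 between middle and low and by -0.07 ± 0.17 between high and low (edgeR adjusted p = 0.791 and 0.881).

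**Figure D4:**
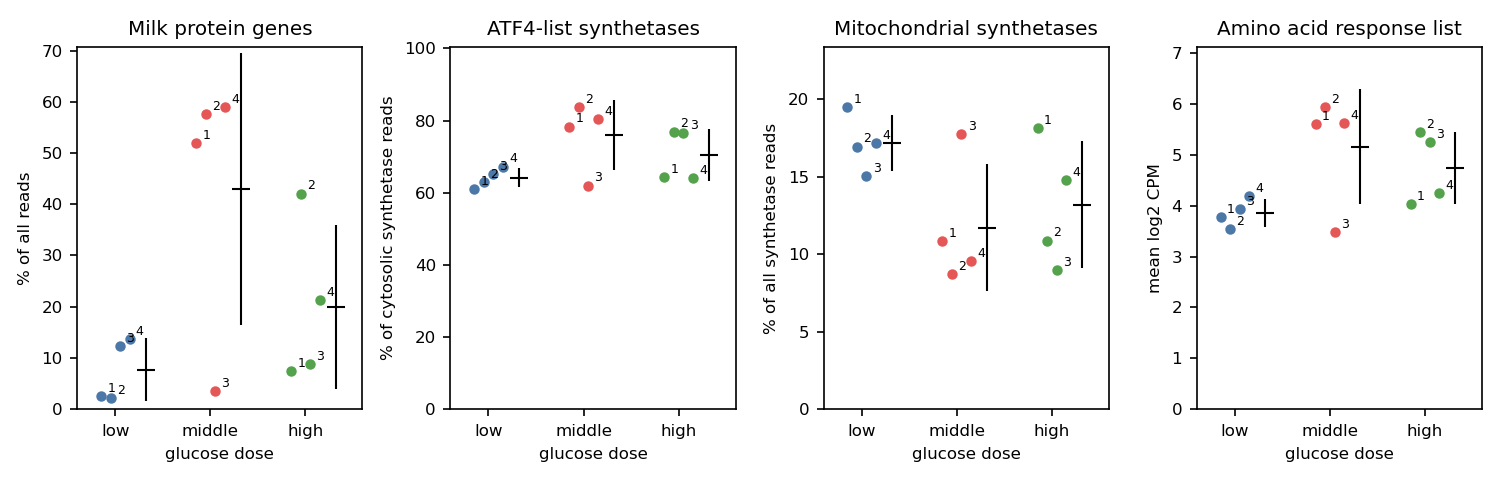
Per-library values by glucose dose (replicate numbers beside points, mean ± SD of 4 libraries as a black bar, axes from 0): milk protein reads as a percent of all reads, the 12 listed synthetases as a percent of cytosolic synthetase reads, mitochondrial synthetases as a percent of all synthetase reads, and the mean log2 CPM of 16 amino acid response genes. Middle-dose replicates 1, 2 and 4 and high-dose replicates 2 and 3 have high listed shares and low mitochondrial shares, and middle-dose replicate 3 resembles the low-dose libraries in each panel.

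Other groupings of the cytosolic genes were described in the same way. The 8 genes of the multisynthetase complex had a median of 0.28 between middle and low and 0.52 between high and low, and the 13 outside it 0.93 and 0.61. Class I and class II enzymes, which differ in the fold of their catalytic domain, had medians of 0.79 and 0.61 between middle and low and of 0.55 and 0.53 between high and low. The subunits of the cytosolic phenylalanyl enzyme, FARSA and FARSB, differed by 0.53 ± 0.24 and 0.47 ± 0.20 between high and low (edgeR adjusted p = 0.435 and 0.405). TARSL2 had the least precise value of the cytosolic genes, -0.27 ± 0.66 between middle and low, with levels of 10.2, 3.565, 14.8 and 7.69 CPM at the low dose and 4.73, 9.53, 2.86 and 22.8 CPM at the high dose.

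The 16 mitochondrial synthetase genes had medians near 0 in all 3 comparisons of doses, 0.07 between middle and low, 0.05 between high and low and 0.01 between high and middle. None had an unadjusted p under 0.05 in edgeR's test in these, and neither edgeR nor DESeq2 called any with all 12 libraries. Limma voom called VARS2 and WARS2 between middle and low. Their summed level was 382, 438, 321 and 387 CPM at the low dose, 371, 377, 449 and 364 CPM at the middle dose and 403, 373, 394 and 356 CPM at the high dose. The summed cytosolic level was 1581, 2149, 1814 and 1867 CPM, 3047, 3949, 2087 and 3442 CPM and 1819, 3057, 3989 and 2054 CPM in the same order. The mitochondrial sums overlapped between the doses, while the cytosolic sums of middle-dose replicates 1, 2 and 4 exceeded every low-dose library. The mitochondrial genes still varied together between libraries. The number above their own median ran from 1 of 16 in low-dose replicate 3 to 15 in low-dose replicate 2, with 14 in middle-dose replicate 3. Under library size alone, 0 of 16 mitochondrial genes were above 0 between middle and low and 0 between high and low, and 16 between high and middle, against 12, 9 and 8 with TMM, and these signs are those of the shift of all genes given above. Relative to the median of all genes the mitochondrial median was 0.15, 0.06 and -0.05 with library size alone and 0.10, 0.08 and -0.02 with TMM. Without middle-dose replicate 3 it was 0.03 between middle and low with TMM, and 7 of the 16 genes were above 0.

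VARS2 (gene ID 102170283, chromosome 23, 26320033 to 26332275), the mitochondrial valyl gene, stood at 28.1, 29.15, 21.1 and 28.8 CPM at the low dose. The middle-dose values were 17.2, 16.5, 27.6 and 15.5 CPM and the high-dose values 33.2, 18.3, 25.0 and 24 CPM. Middle-dose replicates 1, 2 and 4 were the 3 lowest libraries, and replicate 3 lay within the low-dose range. The middle minus low difference was -0.47 ± 0.23 (edgeR adjusted p = 0.232), against -0.70 ± 0.21 without middle-dose replicate 3 (adjusted p = 0.0389).

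WARS2 (gene ID 102175915, chromosome 3, 21966039 to 22068265), the mitochondrial tryptophanyl gene, stood at 29.3, 36.4, 32.35 and 27.3 CPM at the low dose, 45.7, 37.8, 33.7 and 39.9 CPM at the middle dose and 22.9, 29.6, 35.0 and 36.7 CPM at the high dose. The doses overlapped, with high-dose replicate 1 the lowest and middle-dose replicate 1 the highest library. The middle minus low difference was 0.32 ± 0.17 and the high minus middle difference -0.34 ± 0.17 (edgeR adjusted p = 0.266 and 0.371). Both change sign with library size alone, a scaling whose shift of all genes is given above.

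PARS2 (gene ID 102173437, chromosome 3, 88043924 to 88049769) and TARS2 (gene ID 102187362, chromosome 3, 18757712 to 18769549), the mitochondrial prolyl and threonyl genes, had the smallest p of their group between high and low. PARS2 stood at 16.4, 18.8, 13.5 and 16.1 CPM at the low dose, 12.1, 15.6, 20.0 and 14.3 CPM at the middle dose and 18.9, 8.76, 10.1 and 12.3 CPM at the high dose. TARS2 stood at 41.8, 39.1, 34.2 and 49.25 CPM, 38.05, 38.2, 29.5 and 37.1 CPM and 36.5, 34.4, 39.4 and 31.5 CPM in the same order. High-dose replicates 2 and 3 were the lowest libraries for PARS2, and the doses overlapped for both genes. The high minus low differences were -0.37 ± 0.24 and -0.21 ± 0.15 (edgeR adjusted p = 0.56 and 0.567).

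Among further mitochondrial genes, the middle minus low difference was 0.03 ± 0.30 for EARS2, the glutamyl gene, and 0.18 ± 0.21 for AARS2, the alanyl gene (edgeR adjusted p = 0.963 and 0.613). The 5 remaining genes of the term had medians of -0.02 between middle and low and 0.14 between high and low, and none had an unadjusted p under 0.05 in edgeR's test. GATC had the largest differences of these, 0.42 ± 0.23 and 0.40 ± 0.23. Limma voom called GATC higher between middle and low (adjusted p = 0.0332). SEPSECS had 10.3, 9.72, 8.19 and 13.4 CPM at the low dose and 15.1, 16.5, 8.04 and 15.9 CPM at the middle dose, where replicates 1, 2 and 4 were high and replicate 3 was the lowest library of the series.

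Regulators and neighbouring steps of the pathway were described from lists of genes. ATF4 stood at 191, 219, 232 and 264 CPM at the low dose, 618, 712, 207 and 565 CPM at the middle dose and 229.7, 794, 891 and 361 CPM at the high dose. High-dose replicates 3 and 2 were the highest, middle-dose replicates 1, 2 and 4 followed, and middle-dose replicate 3 and high-dose replicate 1 fell in the low-dose range. The ATF4 differences were 1.21 ± 0.44 between middle and low and 1.33 ± 0.44 between high and low (edgeR adjusted p = 0.131 and 0.388). Of 16 amino acid response genes, 10 were higher and none lower at an unadjusted p under 0.05 between middle and low, with a median of 1.58, beside 12.4 and 11.2% of all genes, and 6 were higher and none lower between high and low, with a median of 0.85, beside 7.27 and 4.16%. Among them ATF5, a related transcription factor, differed by 3.19 ± 0.68 between middle and low, MTHFD2, an enzyme of mitochondrial folate metabolism, by 2.02 ± 0.44 and PSAT1, of serine synthesis, by 2.64 ± 0.59. EIF2AK4, the gene of the kinase that senses uncharged tRNA, differed by -0.14. None of the list was called by edgeR with 12 libraries, and 9 were called between middle and low without middle-dose replicate 3, where 8.69% of all genes were called higher. With library size alone 10 of the 16 were above 0 between middle and low, against 14 with TMM, and the median was 1.28 above that of all genes, against 1.61. The 16 genes were lower in middle-dose replicate 3, at a mean log2 CPM of 3.48, than in the other middle-dose libraries, at 5.60 to 5.94.

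Of the 3 scaffold genes of the complex, EEF1E1 and AIMP2 were higher between high and low at an unadjusted p under 0.05, by 1.24 ± 0.35 and 0.70 ± 0.30, and AIMP1 differed by -0.02 ± 0.22. None of the 3 had such a p between middle and low. The shares of all genes at that p are those given above, 12.4% higher and 11.2% lower between middle and low and 7.27 and 4.16% between high and low. Among 6 elongation factor genes that bring charged tRNA to the ribosome or move it, none had one in either comparison, and EEF2 differed by 0.43 ± 0.21 between middle and low. Of 20 genes of tRNA transcription and export, 4 were higher and 1 lower between middle and low, and 2 higher and 1 lower between high and low. With library size alone 0 were higher and 5 lower between middle and low, beside 1.08 and 42.2% of all genes, and 0 and 1 between high and low, beside 1.11 and 2.78%. The subunit gene POLR3K differed by 1.18 ± 0.24 and the initiation factor gene BDP1 by 1.03 ± 0.25 between middle and low, with all middle-dose libraries above all low-dose ones, as for 5.93% of all genes. Of 9 mitochondrial translation factor genes only MTIF3, an initiation factor, had such a p between middle and low, at 1.10 ± 0.19, with the same lack of overlap. EdgeR called no gene of these 4 lists with 12 libraries.

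Marker genes of the tissue varied across the doses. The summed level of epithelial markers other than milk genes ranged from 1319 to 1992 CPM at the low dose, from 1849 to 4017 CPM at the middle dose and from 1603 to 2812 CPM at the high dose. Much of this sum was ELF5, a transcription factor of secretory cells, which stood at 563, 993.5, 981 and 676 CPM in the low-dose libraries, 2849, 2761, 1128 and 3348 CPM in the middle-dose ones and 726, 2148, 2107 and 1457 CPM in the high-dose ones. The other markers of the sum did not share its pattern. The keratin gene KRT18 stood at 27.96 to 78.01 CPM at the low dose and 13.9 to 38.5 CPM at the middle dose, and the adhesion genes CDH1 and EPCAM at 341 to 566 and 299.8 to 405 CPM at the low dose and 277 to 344.5 and 231 to 350.4 CPM at the middle dose. Endothelial markers summed to 608, 613, 799 and 598 CPM, 1065, 1032, 625 and 1301 CPM and 636, 830.2, 732 and 649 CPM at the low, middle and high doses, so middle-dose replicates 1, 2 and 4 were the highest libraries here too. Myoepithelial markers summed to 1401 to 2046 CPM, 903 to 1333 CPM and 1239 to 2260 CPM in the same order. Fibroblast markers summed to 3289 to 19550 CPM at the low, 1735 to 6978 CPM at the middle and 2461 to 10070 CPM at the high dose. Macrophage markers summed to 134.6 to 469 CPM, 188 to 241 CPM and 232.5 to 316 CPM, and T and NK cell markers to 169.9 to 262 CPM, 60.9 to 163 CPM and 72.2 to 138.5 CPM, in the same order. Markers within a sum did not all move alike. Myoepithelial KRT5 stood at 469 to 1176 CPM at the low and 169.5 to 635 CPM at the middle dose. The corresponding ranges were 258 to 425 and 327 to 522 CPM for ACTA2, also myoepithelial. For the macrophage markers they were 31.6 to 112 and 31.7 to 109 CPM for CD14 and 17.1 to 84.3 and 20.5 to 26.6 CPM for CD68. The part of these cell types and of the milk protein share in the synthetase differences was not tested.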

How the data were processed

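RNA was measured in 12 mammary gland libraries, 4 at each glucose dose, taken from the treatment labels. The authors deposited a table of raw read counts per gene for each library. Bowtie 0.12.2 and the mouse build mm8 are named in the submitters' processing notes, although the tables hold goat genes. The sources used here do not give the counting rule, use of strand or goat build. The 15810 genes in all tables were used, and 15384 IDs (97.3%) matched ARS1.2, used for names only. Members and lists were chosen with earlier results of these data known, in that this pathway term was picked then, while the term itself fixes the members.

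Genes passing edgeR's filterByExpr (minimum count 10, minimum total 15) were kept, 13624 of them, with TMM factors from 0.514 to 1.50. EdgeR 4.0.16 fitted robust quasi-likelihood models to all 12 libraries with dose as factor. The Benjamini-Hochberg adjustment covered all genes tested, at a threshold of 0.05. Standard errors are the log2 difference divided by the square root of F. DESeq2 1.42.0 and limma 3.58.1 voom were alternatives. The edgeR script was tested on simulated data. Between middle and low it called 33.8% of 2-fold, 86.4% of 4-fold and 90% of 8-fold changes, with 5 false among 136 calls. The libraries of a dose were drawn alike there, so none stood apart as middle-dose replicate 3 does. Many changes near 2-fold would thus go uncalled. In the real libraries edgeR called 0 genes between middle and low, where the largest cytosolic difference was 2.01 on the log2 scale. The shares recovered at 4-fold and 8-fold therefore need not hold for these data either.

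Named are the 4 cytosolic and 2 mitochondrial genes with the smallest p in each pairwise comparison and in the test of any difference, WARS and ATF4, and from each other list up to 3 genes with the smallest p between middle and low. Values of further members are given for contrast, and these genes were picked with their values in view. The alternatives comprised other size factors, library size alone, milk genes left out, no filter, only the doses compared, a replicate block, table layout and each library left out. No libraries were identical. One member enters the counts and medians but is not reported singly here. R was 4.3.3, Python 3.11.15 and matplotlib 3.10.9.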

Additional observations from a re-analysis of the deposited data

Results flagged for a closer look

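In a group of 4 libraries, a library was singled out when its gap to the nearest of the others took an unusually large part of the group's range. Of 147 groups of values examined, 12 stood out this way, and chance gives about 1 in 20. Middle-dose replicate 3 accounted for 6 of the 12. In it HARS (24.1 CPM), TARS2 (29.5 CPM) and SEPSECS (8.04 CPM) were low and VARS2 (27.6 CPM) was high against the other middle-dose libraries. In the same library the summed level of the mitochondrial synthetases was 449 CPM against 364 to 377 CPM in the others, and the mean log2 CPM of the amino acid response genes was 3.48 against 5.60 to 5.94.

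The other values came from several libraries. FARSA was high in high-dose replicate 3 (48.7 CPM), and HARS2 was high in high-dose replicate 1 (43.7 CPM). NARS2, the mitochondrial asparaginyl gene, was low in high-dose replicate 4 (12 CPM against 14.6 to 14.9 CPM). FARSB (83.4 CPM) and QARS, the glutaminyl gene (156 CPM), were high in low-dose replicate 2, and VARS2 was low in low-dose replicate 3 (21.1 CPM).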

How the results depend on the processing

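Between middle and low the count of members called was 0 with edgeR, 7 with DESeq2 and 15 with limma voom, beside 0, 11.1 and 34.5% of all genes. For middle against the average of low and high, DESeq2 and limma voom called 3 and 12, beside 8.02 and 25.9% of all genes. For any difference they called 5 and 13, beside 8.26 and 28.1%. With each library left out in turn, edgeR called 0 to 11 members between middle and low, 0 to 9 for middle against that average, 0 to 8 for any difference and 0 to 1 between high and middle. The highest of each came from leaving out middle-dose replicate 3, and the count was 0 without any of the other 11 libraries. In the fit without middle-dose replicate 3, 17.3, 15.7, 9.35 and 3.67% of all genes were called in these comparisons, in the same order. Between high and low the count of members called was 0 under every alternative tried.

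With library size alone the cytosolic median became 0.22 between high and low, 0.61 between high and middle, -0.39 between middle and low and -0.50 for middle against the average of low and high. The mitochondrial median became -0.26, 0.52, -0.71 and -0.57 in the same order, while the median of all genes moved to -0.32, 0.56, -0.86 and -0.71. WARS2 then differed by -0.57 between middle and low and by 0.24 between high and middle. In the 8 libraries of the smaller layout the cytosolic median was 0.91 between high and low and 0.26 between high and middle. Those 8 libraries leave out high-dose replicates 1 and 4, with 2 and 3 of the 12 listed genes above their median. They also leave out low-dose replicate 3, with 1, and middle-dose replicate 1, with 11, and keep middle-dose replicate 3, with 3. The cause of the moves under library size alone and in the smaller layout, other than the shift of all genes and this choice of libraries, was not tested. The ATF4 difference between high and middle, 0.11, was -0.19 with limma voom and ranged from -0.19 to 0.38 with each library left out, negative without high-dose replicate 2 or 3 or middle-dose replicate 3.

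With the replicate number as a block, the count of members called was 0 in each comparison, and the cytosolic medians were 0.54 between high and low, 0.67 between middle and low and -0.10 between high and middle. Same-numbered libraries of different doses correlated at -0.535 to 0.379 in their deviations from the dose means, over 0.1 in 4 of 12 pairs. Of the 12 libraries, 1 correlated best with its own number. Other differences between libraries, such as the milk protein share, also enter these correlations. They therefore cannot decide whether the numbers mark pairs. Depth limits mainly the low-count members, of which the least had 25 reads in a library.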

Other observations

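Interferon-response genes, which respond to viral and inflammatory signals, were mostly lower at the middle and high doses than at the low dose. Of 16 tested, 11 were lower and none higher at an unadjusted p under 0.05 between middle and low, with a median of -1.49, where 11.2% of all genes were lower, and 10 were lower and none higher between high and low, with a median of -1.38, where 4.16% were lower. EdgeR called none of them. IFI44, an interferon-induced gene, differed by -1.67 between middle and low (edgeR adjusted p = 0.0862). Its middle-dose libraries lay wholly below its low-dose ones, as for 5.92% of all genes. It stood at 108 CPM in low-dose replicate 4 and at 21.6 to 27.7 CPM in the other low-dose libraries. Without low-dose replicate 4, whose mean was the highest, the medians were -0.48 and -0.17, and the genes with such a p numbered 2 and 0, beside 7.93 and 3.07% of all genes lower.

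Of 8 milk protein genes, 6 were higher and 1 lower at that p between middle and low, with a median of 3.74, beside 12.4 and 11.2% of all genes, and none passed it between high and low, where the median was 1.35. EdgeR called none of the 8 with 12 libraries and 6 between middle and low without middle-dose replicate 3, beside 17.3% of all genes. That library had the lowest milk protein share of its dose, at 3.44% against 52.0 to 58.9%. The 6 therefore cannot be read apart from the choice to leave it out.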
